A study of Mus musculus with 5 samples.

Results

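The genes Meis1, Erg, Etv6, Runx1, Mecom and Hlf encode 6 transcription factors of blood stem cells. All peaks inside these genes or within 100 kb of their annotated spans (RefSeq, mouse assembly GRCm38.p6, the coordinates of mm10) were taken from 5 deposited peak lists of CUT&RUN with an antibody to BCLAF1, a nuclear factor with roles in gene transcription and the splicing of RNA. The 6 loci held 15 peaks of 6540 on chromosomes 1 to 19, X and Y. These merged into 14 distinct regions. The genes were chosen by the presence of peaks in these same lists, so the counts and enrichments of peaks there are a description and were not tested.

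Each list came from 1 CUT&RUN library of 50000 sorted mouse cells with the same anti-BCLAF1 antibody. CUT&RUN tethers a nuclease to antibody-bound chromatin and sequences the DNA that it cuts free. Fetal livers of stage E17.5, pooled from 24 to 26 embryos, supplied the haematopoietic stem cells (HSCs). There were 2 libraries of wild-type (WT) HSCs and 1 of Bclaf1 knockout (KO) HSCs, whose genotype label reads only KO and names neither the allele nor a Cre driver. The KO library is the control of the assay, since by its label it lacks the target of the antibody, and its peaks are not counted as BCLAF1 binding here. Lineage-negative, Sca1-positive, Kit-positive progenitors (LSK cells) of WT genotype gave 1 native library and 1 library after fixation in 0.1% formaldehyde for 2 min. The labels of the LSK libraries name fetal liver as tissue, while the protocol names adult bone marrow pooled from 2 to 3 mice, so their age is uncertain. The labels do not say whether the WT libraries came from separate pools. With 1 library per condition except for WT HSCs, no difference between conditions could be tested against replicates. Peak lists hold no expression values, so neither the sorted cell types nor the KO label could be checked against markers.

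In blood stem cells these factors act together to keep self-renewal and lineage choice in balance. ERG and RUNX1 bind many shared enhancers with other blood factors, and MEIS1, MECOM and HLF are best known for their role in maintaining the stem cell state. Genes of this kind are often long, can carry several promoters and are controlled by distal enhancers. Whether any peak described here lay at an enhancer was not tested. All 6 are also known from translocations or aberrant expression in leukaemia.

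The start sites closest to any of the 15 peaks were those of Hlf and the second, proximal promoter of Runx1. The 250 bases before each are shown because peak summits of the fixed LSK library lay 585 bp and 1725 bp downstream of them. The sequences are from RefSeq (GRCm38.p6, minus strand, chr11:90390918-90391167 and chr16:92697330-92697579). Both are read 5′ to 3′, and capitals mark matches on either strand to motifs searched for, which overlapped nowhere in these sequences.
Hlf: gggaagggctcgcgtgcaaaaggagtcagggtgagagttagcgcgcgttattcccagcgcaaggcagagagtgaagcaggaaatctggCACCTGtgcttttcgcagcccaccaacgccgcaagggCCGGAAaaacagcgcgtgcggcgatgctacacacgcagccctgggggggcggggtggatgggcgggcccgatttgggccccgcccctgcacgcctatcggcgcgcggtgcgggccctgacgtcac
Runx1, second start site: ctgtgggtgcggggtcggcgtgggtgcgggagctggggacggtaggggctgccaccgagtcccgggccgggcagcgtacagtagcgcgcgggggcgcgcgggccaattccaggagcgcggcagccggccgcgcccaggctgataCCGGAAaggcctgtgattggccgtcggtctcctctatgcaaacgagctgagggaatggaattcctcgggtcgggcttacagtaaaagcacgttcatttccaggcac

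The Hlf promoter held 1 E-box match (CANNTG, bound by TAL1 and other basic helix-loop-helix factors) and 1 ETS match (CCGGAA, bound by ERG and its relatives). The Runx1 promoter held 1 ETS match. Among 32851 RefSeq promoters of the same length, 66.2% held the E-box letters and 12.0% the ETS letters on either strand. Neither of the sequences held the GATA letters AGATAA, the RUNX letters TGTGGT or the TATA box letters TATAAA, which were present in 9.99%, 14.1% and 12.4% of all promoters. Their GC content was 67.2% at Hlf and 67.6% at Runx1, against a median of 52.4% over all promoters. No peak overlapped either sequence, and the sequences of the peaks themselves were not analysed here.

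The KO list, by far the longest, held more peaks at the 6 genes than any other list, and the WT HSC lists held few. There were 7 peaks in the KO list and 2 in HSC WT 2, while HSC WT 1 had 0. The native LSK list had 2 and the fixed LSK list 4. These counts do not allow for list length. The KO list held 4517 of the 6540 peaks, HSC WT 1 held 447 and HSC WT 2 held 528. The native LSK list had 770 peaks in all and the fixed one 278. By share of its list, KO was lowest among the lists with any peak at these genes, at 0.155%. That share was 0.379% for HSC WT 2, 0.260% for native LSK and 1.44% for fixed LSK. All 6 genes had a peak in at least 1 list and also a peak inside their span, as do 30.8% and 5.32% of all 21887 protein-coding genes, which the choice of the genes fixes. Counted by list, KO peaks lay at 4 of the 6 genes, beside 27.9% of all coding genes under the same distance rule. HSC WT 2 peaks lay at 2 of the 6 (background 3.59%), HSC WT 1 peaks at 0 (2.81%), native LSK peaks at 2 (5.7%) and fixed LSK peaks at 3 (2.43%). These backgrounds come from genes of all lengths, with a median span of 17.2 kb. The 6 genes are longer, from 54.4 kb for Hlf to 558.5 kb for Mecom, and a longer window catches more peaks.

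Per length, the 2.64 Mb of the 6 windows held 2.65 KO peaks per Mb, beside 1.66 per Mb for the whole KO list. HSC WT 2 had 0.758 per Mb in the windows and 0.194 over the list. Native LSK cells had 0.758 and 0.283. In fixed LSK cells the 6 windows held 1.52 peaks per Mb against 0.102 for the list. HSC WT 1 had 0 in the windows against 0.164. Counted inside the gene spans only, the order turned in KO, with 1.39 peaks per Mb against 1.66 for the list. The 4 fixed LSK peaks were 1.44% of that list (exact 95% binomial interval 0.393 to 3.64), and the 7 KO peaks were 0.155% of theirs (0.0623 to 0.319). These intervals treat the peaks of a single library as independent draws and ignore how the loci were chosen. They do not measure a difference between fixed LSK cells and KO. The loci were picked with these peaks in view, so the higher densities are part of the choice.

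**Figure D1:**
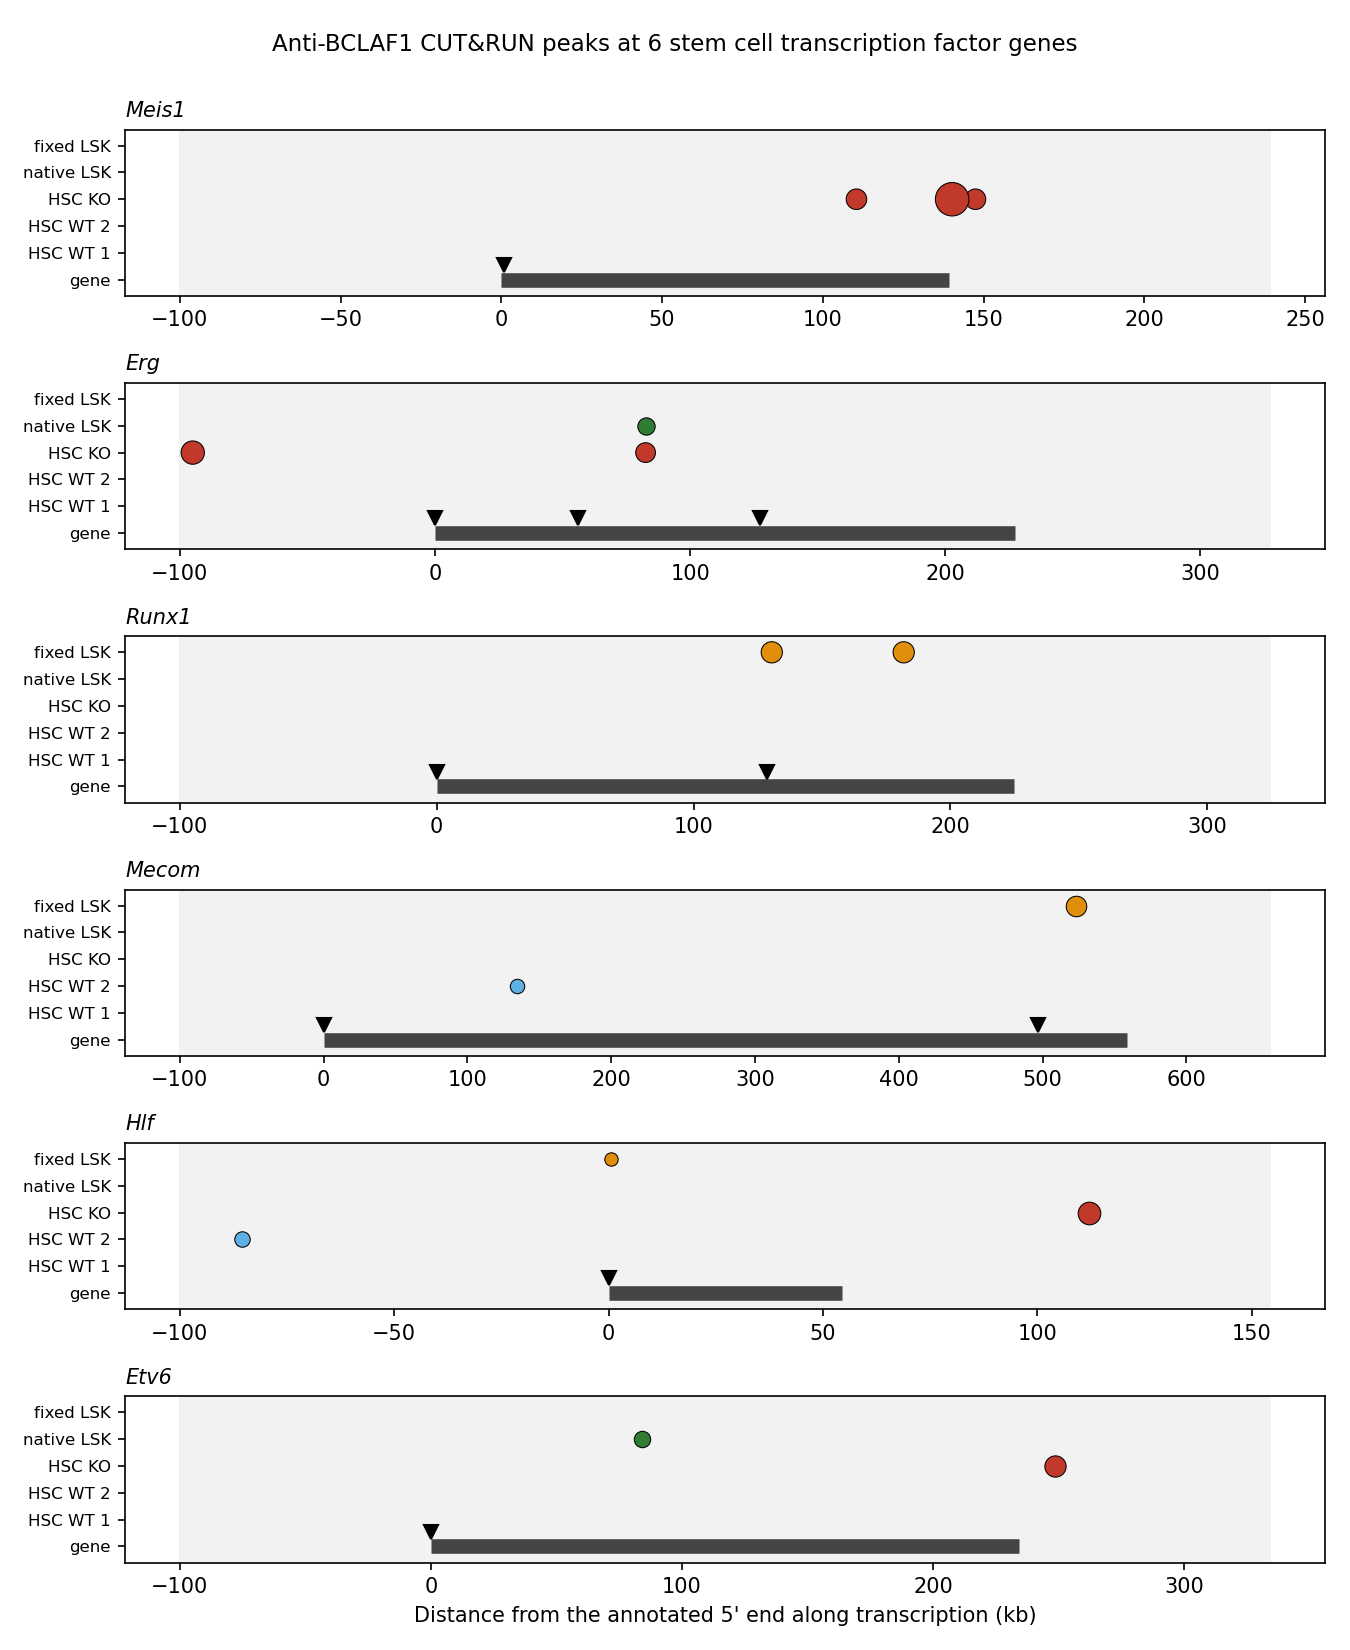
Positions of the 15 peaks (circles, area rising with the number of reads at the summit) along each gene, in kb from its annotated 5′ end in the direction of transcription; the dark bar is the gene, triangles are annotated start sites and the shaded area is the gene with 100 kb on either side. KO peaks lie at Meis1, Erg, Hlf and Etv6, fixed LSK peaks inside Runx1, Mecom and Hlf, and the HSC WT 1 row is empty in all 6 panels.

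Read depth was not available. The background of the libraries, used in its place, differed, and this bears on which peaks could be called. Solved from the peak statistics, the background per position was 1.15 reads in KO. It was 0.339 and 0.117 for HSC WT 1 and 2, and 0.327 and 0.022 for the native and the fixed LSK library. The weakest called peak rested on 9, 6, 4, 6 and 3 reads in the same order. Fold enrichment below is the authors' own value per peak, reads over local background with a pseudocount of 1, and is not scaled between libraries. The read numbers were recovered from it and from the deposited p-value.

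Of the 15 peaks, 9 lay inside the annotated span of their gene, 2 upstream and 4 downstream. All 4 fixed LSK peaks and both native LSK peaks lay inside the genes, and 2 of the 7 KO peaks did. By that stricter rule, 3 of the 6 genes had a fixed LSK peak (background 0.448%), 2 a native LSK peak (0.9%), 2 a KO peak (4.73%), 1 an HSC WT 2 peak (0.63%) and 0 an HSC WT 1 peak (0.443%). The peaks were between 67 and 206 bp wide. The reference used gives no exons, so none was assigned to an exon or intron. The highest number of reads was 34, in a KO peak at Meis1, and the lowest was 3, in a fixed LSK peak at Hlf. Read numbers are not scaled between libraries. As a ratio of reads to local background the order turned, with 29.65 for this Meis1 peak and 136.5 for the Hlf peak.

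Meis1 encodes a homeodomain partner of HOX and PBX proteins and was the only one of the 6 genes with more than 2 KO peaks. It lies on chromosome 11 from 18880428 to 19019651 on the minus strand. All 3 of its peaks were in the KO list and the nearest peak of any other list, in native LSK cells, was 2027 kb away. The strongest, from 18879373 to 18879483, had a fold enrichment of 16.3 and 34 reads and stood above 87.4% of the KO list. It lay 945 bp beyond the 3′ end of Meis1, far from the annotated start site, whose distance to the summit was 139549 bp. Its summit was also 1810 bp upstream of the start of the long non-coding RNA gene 8430419K02Rik.

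The other Meis1 peaks were weaker and equal in value. One lay inside the gene from 18909166 to 18909232, at 79.3% of its length from the 5′ end, and the other lay 8220 bp beyond the 3′ end, from 18872131 to 18872208, inside 8430419K02Rik. Each had a fold enrichment of 5.59 and 11 reads, above 10.0% of the KO list. Because read numbers are small whole numbers, 298 KO peaks share exactly this enrichment. The peaks at Meis1 thus lay in the last part of the gene and beyond it, and none lay near its promoter.

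Erg encodes an ETS-family factor needed for stem cell maintenance and lies on chromosome 16 from 95359169 to 95586600 on the minus strand. It held the only region of the 6 loci that was called in 2 lists. In KO this peak ran from 95504017 to 95504083 with a fold enrichment of 5.12 and 10 reads. In native LSK cells it ran from 95504008 to 95504086 with 6.03 and 7 reads. The summits, at 95504065 and 95504051, lay at 36.3% of the gene's length and 26300 and 26314 bp downstream of the second annotated start site. Both peaks were weak in their lists, above 6.07% of the KO and 17.8% of the native LSK peaks. HSC WT 1, HSC WT 2 and fixed LSK cells had no peak there.

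A second KO peak at Erg lay 94938 bp upstream of the gene, from 95681538 to 95681619, with a fold enrichment of 7.45 and 15 reads. It lay inside the non-coding RNA gene Gm31901 and 20788 bp from Ets2, another ETS-family gene, so it was closer to Ets2 than to Erg. Of the 15 peaks it was the one nearest to the 100 kb limit. The nearest peak beyond that limit, also in KO, lay 213.9 kb from Erg on its other side, with a fold enrichment of 8.85.

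Etv6, which encodes an ETS-family repressor required for adult blood stem cells, lies on chromosome 6 from 134035700 to 134270158 on the plus strand. A native LSK peak inside it, from 134119710 to 134119793, had a fold enrichment of 5.27 and rested on 6 reads, the lowest number in that list. Its summit was 84052 bp downstream of the start site. A KO peak 14025 bp beyond the 3′ end, from 134284183 to 134284249, had 6.06 and 12 reads. The peaks lay 164.4 kb apart, so Etv6 had a peak in both lists without a shared region.

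Runx1 encodes the DNA-binding subunit of core binding factor, which is required for the first blood stem cells to form. It lies on chromosome 16 from 92601466 to 92826074 on the minus strand, and is transcribed from a distal and a proximal promoter. Its peaks came from 1 library, fixed LSK. The first, from 92695532 to 92695737, had a fold enrichment of 11.3 and 12 reads, with its summit 1725 bp downstream of the proximal start site whose promoter is printed above. The second, from 92644182 to 92644341, had 11.8 and 12 reads and lay 53090 bp downstream of the same start. Both were wide for the list, at 206 and 160 bp against a median of 92 bp, and stood above 84.9% and 85.6% of its peaks by enrichment. The nearest native LSK peak was 1093 kb away.

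Mecom encodes the zinc finger proteins MDS1-EVI1 and EVI1 from a distal and a proximal start site, and lies on chromosome 3 from 29951296 to 30509759 on the minus strand. The fixed LSK peak, from 29986246 to 29986328, had a fold enrichment of 11.1 and 11 reads, above 84.2% of the list. It lay 26906 bp downstream of the second start site, at 93.7% of the gene's length. The HSC WT 2 peak, from 30374984 to 30375074, had 4.48 and rested on 4 reads, the lowest number in that list. It lay 134730 bp downstream of the first start site and 388.7 kb from the fixed LSK peak. HSC WT 1 and KO had no peak at Mecom.

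Hlf, a PAR-type basic leucine zipper factor that marks blood stem cells, lies on chromosome 11 from 90336535 to 90390917 on the minus strand. It was the only one of the 6 genes with peaks in 3 lists, at 3 different places. The fixed LSK peak, from 90390281 to 90390382, was the closest of the 15 to an annotated start site, 585 bp downstream of it. It rested on 3 reads, with a fold enrichment of 3.91 that 87 peaks of the list share. The KO peak, from 90278719 to 90278787, had 6.99 and 14 reads, and lay 57748 bp from Hlf but 146 bp beyond the 3′ end of Mmd. The HSC WT 2 peak, from 90476417 to 90476487, had 5.37 and 5 reads, and lay 85500 bp from Hlf but 5 bp beyond the 3′ end of Stxbp4. These distal peaks were thus much closer to neighbouring genes than to Hlf.

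With the Meis1 peak, 3 of the 15 peaks lay within 1 kb of the 3′ end of a protein-coding gene. Over all 5 lists 61 of 6540 peaks did (0.933%), counting the 17492 coding genes whose strand is known. This count was made after the positions of the peaks had been seen. Within 2 kb of an annotated start site of the 6 genes there were 2 peaks, those of Hlf and of the proximal Runx1 promoter, both in fixed LSK cells.

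**Figure D2:**
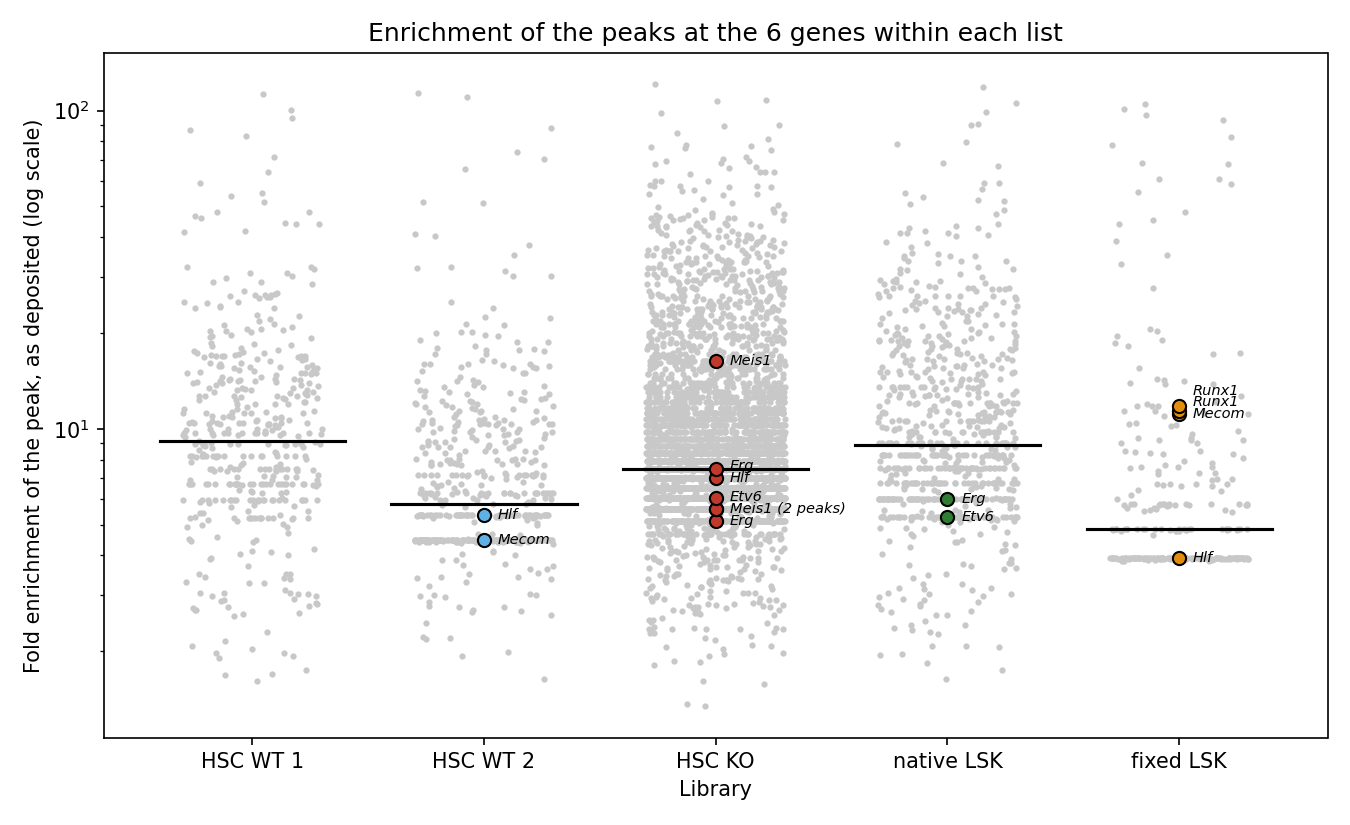
Fold enrichment of every peak as deposited (log scale, grey points) for each list, with the list median (black line) and the peaks at the 6 genes (coloured, with gene names). The Meis1 peak at 16.3 and the 3 fixed LSK peaks at Runx1 and Mecom between 11.1 and 11.8 lie above their list medians of 7.45 and 4.84; the enrichments of different lists are not on a common scale.

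In KO, native LSK and HSC WT 2, most of these peaks were of low rank, and in fixed LSK cells most were not. In KO, 5 of the 7 were below the list median of 7.45 and 1 was equal to it. Both native LSK peaks were below the median of 8.91 and both HSC WT 2 peaks below that of 5.80. In fixed LSK cells, 3 of the 4 were above the median of 4.84.

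Only 1 of the 14 regions was called in more than 1 list, the one inside Erg. Over whole lists, 84.9% of native LSK, 67.1% of HSC WT 2, 36.3% of fixed LSK and 16.3% of KO peaks overlapped a peak of another list. For the 6 genes these counts were 1 of 2, 0 of 2, 0 of 4 and 1 of 7. Neither of the regions called in WT HSCs, at Mecom and Hlf, had a KO peak (0 of 2, exact 95% binomial interval 0 to 84.2%). In whole lists 90.4% of HSC WT 1 and 66.3% of HSC WT 2 peaks overlapped a KO peak. The Mecom and Hlf peaks, both of HSC WT 2, rested on 4 and 5 reads, and in that list 20 of 133 peaks with 4 reads and 32 of 80 with 5 reads overlapped a KO peak.

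Whether a missing peak could have been called was judged from the number of reads. The reads of each peak were multiplied by the ratio of the backgrounds of the lists and set beside the smallest read number called in the other list. A peak enters this comparison because it passed the caller, so its read number tends to be high and the expected numbers tend to be upper estimates. Among the 58 pairs of a peak and a library that lacked it, 27 had expected reads at or above that minimum. For the KO peaks it was 2 of 27, both for the strongest Meis1 peak. HSC WT 1 was expected to hold 10.1 reads there (exact 95% Poisson interval of the peak's count, scaled, 6.96 to 14.0) and native LSK cells 9.69 (6.71 to 13.6), against minima of 6 in each. In HSC WT 2 the expected 3.47 reads lay below the minimum of 4. For the other 6 KO peaks the expected reads were below the minimum in all 4 other libraries. The upper limits still reached the minimum of 6 in HSC WT 1 for the distal Erg peak (7.31), Hlf (6.94) and Etv6 (6.20), and in native LSK cells for the distal Erg peak (7.05) and Hlf (6.70). An expected number below the minimum did not preclude a call: at the shared Erg region 2.85 reads (1.37 to 5.24) were expected in native LSK cells from the KO peak, and a peak of 7 reads was called.

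For the peaks of the lists with a lower background, the expected reads in KO lay above its minimum of 9. The 4 reads of HSC WT 2 at Mecom scaled to 39.2 reads in KO (10.7 to 100.4) and the 5 reads at Hlf to 49.0 (15.9 to 114.4), and no KO peak was called at either. HSC WT 1, the replicate, was expected to hold 11.6 (3.16 to 29.7) and 14.5 reads (4.70 to 33.8), against a minimum of 6, and lacked both as well. The lower bounds for HSC WT 1 were below its minimum. The native LSK peak at Etv6 scaled to 21.1 reads in KO (7.72 to 45.8) and 6.22 in HSC WT 1 (2.28 to 13.5). It was called in neither, and had both lower bounds below the minimum. The native LSK peak at Erg scaled to 7.26 reads in HSC WT 1 (2.92 to 14.95). No peak was called there, and the lower bound was again below the minimum of 6. For the fixed LSK peaks all 16 pairs lay above the minimum. At Runx1 each peak scaled to 178.4 reads in native LSK cells (92.2 to 311.6) and 626 in KO (323 to 1093), and at Mecom to 163.5 (81.6 to 292.5) and 573.5 (286 to 1026), yet no other list had a peak there. These numbers use the background of the whole fixed LSK list, 0.022, while the local background was 0.103 and 0.147 at the Runx1 peaks and 0.0806 at Mecom. Scaled by the local background, an alternative chosen after seeing the data, the Runx1 peaks gave 134.3 and 93.9 reads in KO and 38.3 and 26.8 in native LSK cells, and the Mecom peak 156.6 and 44.6. All 16 fixed LSK pairs remained above the minimum by that scaling. The 3 reads at Hlf scaled to 44.6 in native LSK cells (9.20 to 130.3). All these numbers assume equal signal over background in both libraries, which was not tested. Among comparison genes described below, fixed LSK peaks of 5 reads at Ikzf1 and 4 at Hoxa5 and Fli1 overlapped KO peaks. Those KO peaks had 17, 15 and 149 reads, fewer than the list backgrounds of 0.022 and 1.15 give. In native LSK cells the overlapping Fli1 peak had 111 reads, more than such scaling gives. The intervals cover counting error only. Duplicate handling is not given, so whether some reads are copies of 1 molecule could not be checked.

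**Figure D3:**
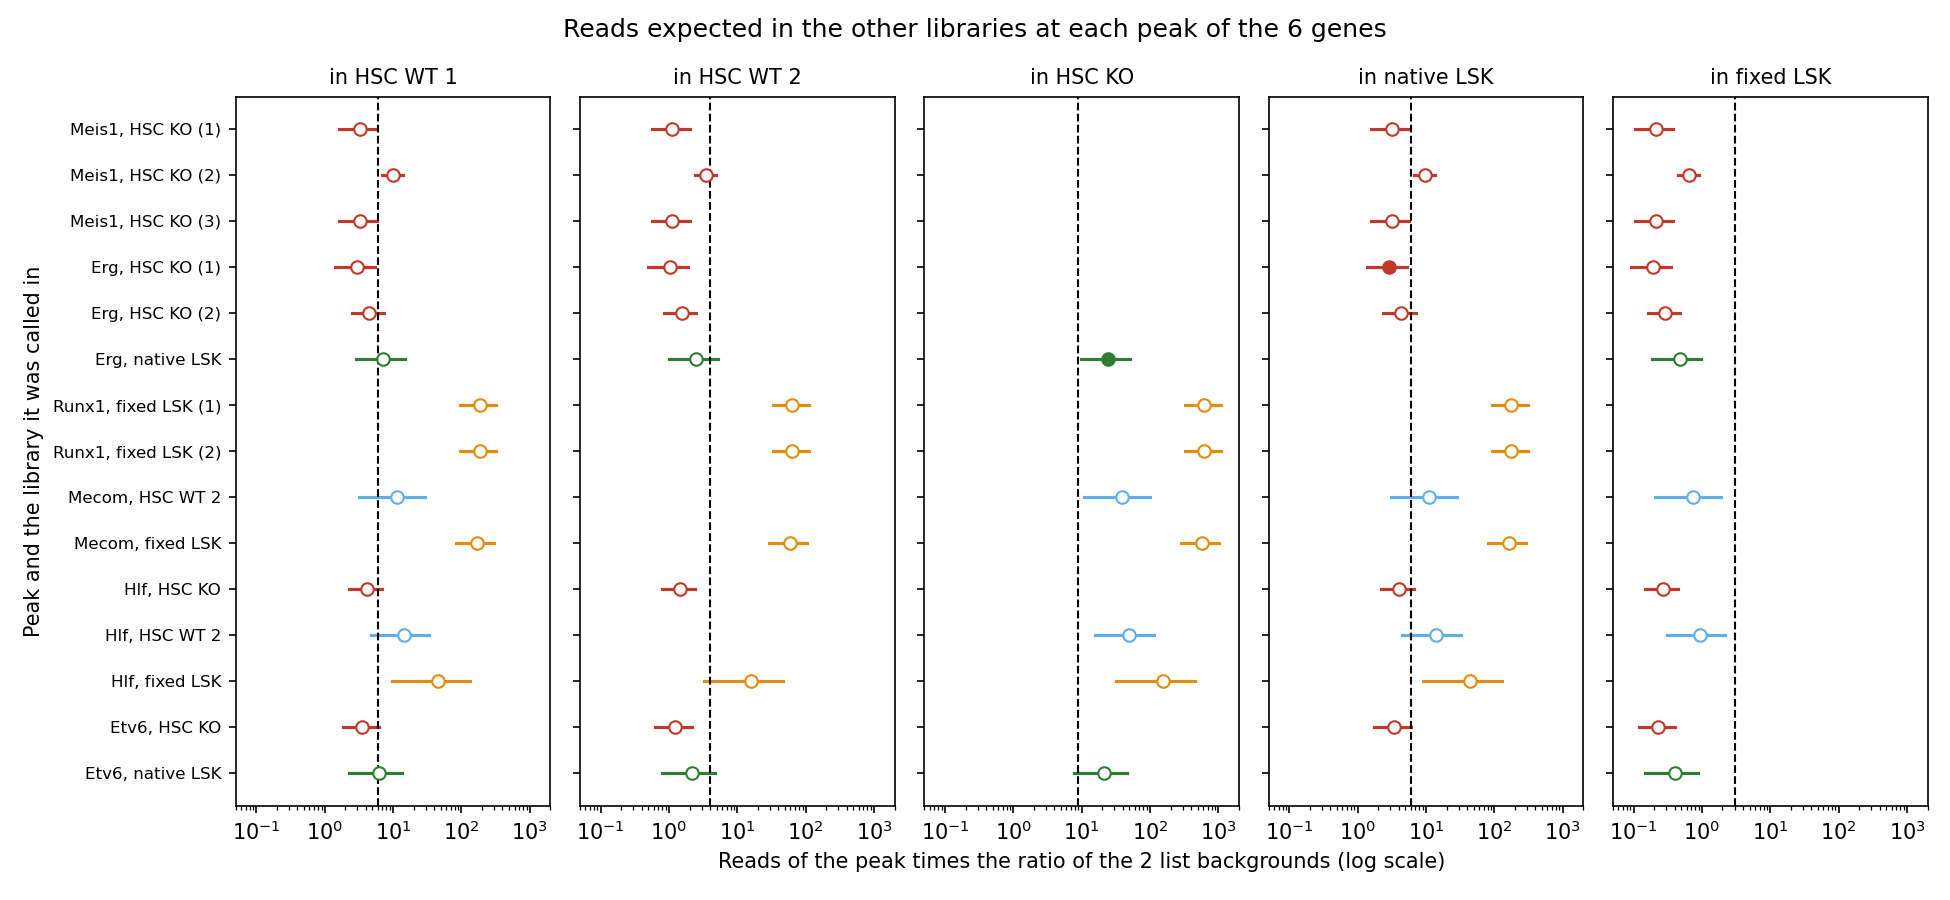
Reads of each peak multiplied by the ratio of the 2 list backgrounds (points, log scale, with scaled exact 95% Poisson intervals as lines), in 1 panel per library; rows name the gene and the library that called the peak, numbered in order of position, colours mark that library and filled points mark peaks called in both lists. The dashed line is the smallest read number of any peak in the panel's list: the fixed LSK peaks (orange) lie to the right of it in all 4 other libraries, and KO peaks (red) lie to the left except 1 Meis1 peak in HSC WT 1 and native LSK cells.

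The Runx1 and Mecom peaks were among the stronger peaks of the fixed LSK list, and most peaks at least as strong recurred in other libraries. Of the 67 fixed LSK peaks with at least 11 reads, the strongest of which have no resolved read number, 56 overlapped a peak of another list (83.6%) and 11 did not. Those 11 include all 3 Runx1 and Mecom peaks, which have the lowest enrichments of the 11, from 11.1 to 11.8. The limit of 11 reads was set by the Mecom peak itself, after its value was seen. Of the 11, 6 lay inside protein-coding genes, and the other 3 genes were Ano2, Mterf1a and Marchf1. Of the fixed LSK peaks with exactly 11 reads 3 of 4 overlapped another list, and of those with exactly 12 reads 1 of 3 did. These groups include the Mecom peak and the 2 Runx1 peaks themselves, which are the ones that did not overlap. In KO, 547 of 794 peaks with at least 34 reads overlapped another list (68.9%), and 5 of the 35 with exactly the 34 reads of the strongest Meis1 peak did (14.3%).

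For comparison, 44 other regulators of blood stem and progenitor cells were examined, most of them transcription factors and some cofactors or RNA-binding proteins. Peaks within 100 kb were found for 18 of them in KO (40.9%, background 27.9%), for 5 in HSC WT 1 (11.4%, background 2.81%) and for 4 in HSC WT 2 (9.09%, background 3.59%). They were found for 5 in native LSK (11.4%, background 5.7%) and for 4 in fixed LSK cells (9.09%, background 2.43%). The list holds neighbours that share peaks, such as Lyl1 and Nfix and the Hoxa genes. The 8 genes with peaks in at least 2 lists were Fli1, Spi1, Lyl1, Nfix, Msi2, Hoxa5, Ikzf1 and Ldb1.

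At Fli1, an ETS-family relative of Erg, all 5 lists had a peak 66.5 kb from the gene. Its enrichment was 30.3 in KO, 10.6 in HSC WT 1 and 9.08 in HSC WT 2, and it was 35.0 in the native and 4.63 in the fixed LSK library. At Spi1, which encodes the myeloid factor PU.1, 1 region 28.7 kb from the gene had 68.1, 16.4, 7.87 and 23.8 in the first 4 of these. At Msi2, an RNA-binding protein gene, a region inside the gene had 77.8 in KO, 15.7 in HSC WT 1 and 9.04 in native LSK cells. Lyl1 and Nfix share 1 region, 77.5 and 80.8 kb away, with an enrichment of 24.2 in KO, 8.96 and 5.37 in the WT HSC libraries 1 and 2, and 18.8 in native LSK cells. In fixed LSK cells the 4 peaks of this list, at Fli1, Hoxa5, Ikzf1 and Ldb1, had between 3 and 5 reads and lay outside the genes. The Runx1 and Mecom peaks had 11 or 12 reads and lay inside, while the Hlf peak lay inside with only 3 reads. The comparison genes are shorter, with a median span of 21.1 kb, beside 224.6 kb for Runx1 and 558.5 kb for Mecom. A longer gene is more likely to hold a peak inside. Outside these 8, the highest enrichments were at Klf1 (12.6), Meis2 (7.92), Lmo2 (7.45), Nkx2-3 (6.99) and, at 6.52 each, Runx2 and the Hoxa7, Hoxa9 and Hoxa10 cluster, all in KO. All 9 WT HSC peaks at these other genes overlapped a KO peak, and 0 of the 2 at Mecom and Hlf did. This difference was not tested. In whole lists 90.4% of HSC WT 1 and 66.3% of HSC WT 2 peaks overlapped a KO peak. The 9 peaks rested on 5 to 21 reads, and those at Mecom and Hlf on 4 and 5. Regions at Fli1, at Spi1 and at Lyl1 with Nfix count among the 9 once in each WT list.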

How the data were processed

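Deposited lists of peaks, 1 per library in the narrowPeak layout, were used for 2 HSC WT, 1 HSC KO, 1 native LSK and 1 fixed LSK library. Coordinates are on mm10, per the submitters' processing notes. Aligner, caller, control and duplicate handling: not given in the sources used here. In each list the deposited fold enrichment of a peak is a ratio of reads to local background, the deposited −log10 p-values and −log10 q-values come from the same caller, and the deposited score is the −log10 q-value times 10, rounded down. No count table or depth was used. Reads at each summit were solved from the enrichment (pseudocount 1) and the Poisson p-value. A whole number fitted in 100% of peaks with a −log10 p up to 300 (relative tolerance 0.0001). The most common background of a list served in place of its depth, which was not measured. On simulated peaks 954 of 954 read numbers were recovered. The simulation used the same formula that the recovery inverts, so it checks the calculation and not the deposited values.

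Peaks were assigned to a gene if the gap to its span in the RefSeq table (GRCm38.p6) was at most 100 kb, and peaks overlapped if they shared at least 1 bp. Whole-list densities used 2722 Mb, the sum of the last annotated gene ends. Strands and start sites came from the RefSeq promoter table, which holds all 6 genes. No test across samples was possible, so results are counts and values with exact intervals. The members, the comparison list and the motifs were chosen with earlier results of these data known. All 15 peaks are described; of the 44 comparison genes, those with a peak in at least 2 lists and the 5 next highest enrichments are named, with ties. Computation used Python 3.11.15, pandas 2.3.3 and scipy 1.17.1.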

Additional observations from a re-analysis of the deposited data

How the results depend on the processing

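No paired analysis was possible because only the WT HSC group has replicate numbers and no result comes from a test. With peaks inside the spans only, HSC WT 2 had 1 peak at 1 gene and KO 2 peaks at 2 genes; within 50 kb HSC WT 2 had 1 peak at 1 gene. With a −log10 q of at least 5, KO had 4 peaks, HSC WT 2 and native LSK cells had 0 peaks at 0 genes, and 0 regions were in 2 lists. With each list held to its strongest 278 peaks, the 6 genes had 0 peaks in HSC WT 2, KO and native LSK cells, at 0 genes, and 0 regions in 2 lists, while fixed LSK cells had 4. Those 4 are all peaks of that library, since it sets the size. The other 59 of 78 recomputed values were counts within 1.5 times the reported one, or densities within its interval. That interval is wide: the KO density inside the spans was 1.39 peaks per Mb, 1.66 for the list, against 2.65 in the windows. They include the number of shared regions under other overlap rules (1 each time), and the 27 pairs with sufficient expected reads when the median or the local background was used. The number of shared regions was also 1 with either WT library left out. That was fixed in advance, since the shared region comes from KO and native LSK peaks. Likewise, the 0 peaks of HSC WT 1 could not change under stricter rules. Without HSC WT 2, or with a −log10 q of at least 5 or lists of equal size, no WT region was left to compare with KO. Leaving out peaks of 3 reads, an alternative chosen after seeing the data, left 3 fixed LSK peaks. Of the 15 peaks, 14 rest on 3 to 15 reads, which limits these values.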
